A study of Mus musculus with 10 samples.

Results

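Nonsense-mediated decay is the pathway that finds messenger RNAs whose translation ends too early and has them degraded. The helicase UPF1 is its central factor; it joins a terminating ribosome, is joined by UPF2 and UPF3 proteins that link it to exon junction complexes left on the transcript by splicing, and is phosphorylated by the kinase SMG1. Phosphorylated UPF1 then recruits SMG6, which cuts the transcript, and SMG5, which helps to bring in the general decay enzymes. In neurons the pathway also acts on normal transcripts, among them that of the activity-regulated gene Arc, and in human cells the messengers of several of its own factors are known substrates.

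The 9 genes described here were Upf1, Upf2, Upf3a, Upf3b, Smg1, Smg5, Smg6, Casc3 and Rbm8a, and they were found as the 20 probe sets, out of 45037 on the array, whose gene identifier in the deposited comparison table belonged to these symbols. Messenger RNA from the neocortex of 10 male B6xC3 F1 hybrid mice was labelled, 5 of them aged 30 months and 5 aged 5 months, and each mouse had its own Affymetrix M430 2.0 array. All mice were housed singly on the same control diet, and the labels name no transgene or agent. The mice are named by the numbers of the labels, 2 to 6 at 30 months and 1 to 5 at 5 months, and these numbers do not pair mice across ages. In the deposited comparison table the names of all 30-month arrays begin with SK, and no 5-month name does. What SK stands for is not given, and a difference that it marks cannot be told apart from age. For each gene the probe set with the highest mean log2 signal over all 10 arrays stood for the gene, so the probe set of a gene was chosen by its brightness. The set of genes was drawn up when the large age difference of Upf1 was already known, so the difference of Upf1 is described here with no test. The others carry adjusted p-values from a fit across all 11963 genes tested, which are not independent of that choice.

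The arrays had median signals of 114.5 to 122.6. A probe set was tested at the gene level if its mean log2 signal exceeded 6.89, the median of all probe sets, and the median change of all tested genes, 30 minus 5 months on the log2 scale, was 0.08. Of all tested genes 34.0% were called higher and 12.3% lower at 30 months, a call being an adjusted p under 0.05. Of 4 neuron markers 1, the glutamate transporter gene Slc17a7, was called higher and 0 lower, and their summed signals overlapped, at 23312 to 24929 at 30 months and 22320 to 24908 at 5 months. Of 4 oligodendrocyte markers 1 was called higher and 0 lower, with overlapping sums of 20300 to 24081 at 30 months and 20037 to 21894 at 5 months. All 4 astrocyte markers were called higher at 30 months, with a summed signal of 3958 to 4484 at 30 months and 1558 to 1975 at 5 months. Of 4 microglia markers 2 were called higher and 2 lower, with sums of 5898 to 6486 at 30 months and 4980 to 5194 at 5 months. The choroid plexus sum, led by Ttr, ranged from 3072 to 11272 in the old mice and from 8169 to 10790 in the young mice. Of its 3 markers 1 was tested, and it was called lower. Of 2 tested endothelium markers 1 was called higher and 0 lower, with sums of 1332 to 1496 at 30 months and 1038 to 1244 at 5 months. Of 3 striatum markers 0 were called higher and 1 lower, with overlapping sums of 3897 to 4729 at 30 months and 4294 to 4839 at 5 months. Meninges and blood had 1 tested marker each, and neither was called. The part of these markers in the values below was not tested. In bulk tissue a change in the number of cells of a type, up or down, and a change in RNA per cell cannot be told apart. On the 5-month array of mouse 5 a gene was often the lowest of its age: this held for 41.0% of all tested genes.

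Messenger RNA of Upf1 stood far above its young level in every old mouse. In their brightest probe sets, the other 8 factors differed by at most 0.33 on the log2 scale. Of these 8, Upf2, Upf3a, Upf3b and Rbm8a were called higher, 0 were called lower, and Smg1, Smg5, Smg6 and Casc3 did not pass the test. Against a background of 34.0% of all genes called higher, 4 of 8 is not a share that sets these genes apart. The median change of the 8 was 0.17, against 0.08 over all tested genes. The calls of Upf2, Upf3a and Rbm8a were lost under some scalings of the arrays, under which Smg5 and Casc3 were called lower. Leaving out single mice also changed whether Upf3a, Rbm8a, Smg1, Smg5, Smg6 and Casc3 passed. Upf3b was called higher under all 18 alternatives tried.

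The helicase gene Upf1 was measured by 1 probe set, 1419685_at, designed on a full-length messenger RNA record, so no other probe set of Upf1 could be set beside it. Its signal was 535, 539, 491, 515 and 640 in 30-month mice 2 to 6, against 271, 185, 270, 255 and 147 in 5-month mice 1 to 5. Every old mouse lay above every young mouse, and the lowest old signal was well clear of the highest young one. The young mice were more spread out, with mice 2 and 5 low, than the old mice, which lay close together apart from mouse 6. On the log2 scale Upf1 averaged 9.08 ± 0.14 in the old mice and 7.78 ± 0.39 in the young mice (SD, n = 5 each). The difference was 1.30 (SE 0.15), a 2.47-fold higher level, which ranked 13 among the upward changes of the 11963 tested genes. Under the alternatives it lay between 1.16 and 1.38, the lowest value being that without 5-month mouse 5. In the authors' deposited table the same probe set had a signed fold change of 2.41 with a lower bound of 1.98. It was the 1 of the 20 probe sets to meet the authors' criteria, which 8.96% of all probe sets met. Because the difference of Upf1 was known when the set was drawn up, neither its rank nor these criteria test it.

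**Figure D1:**
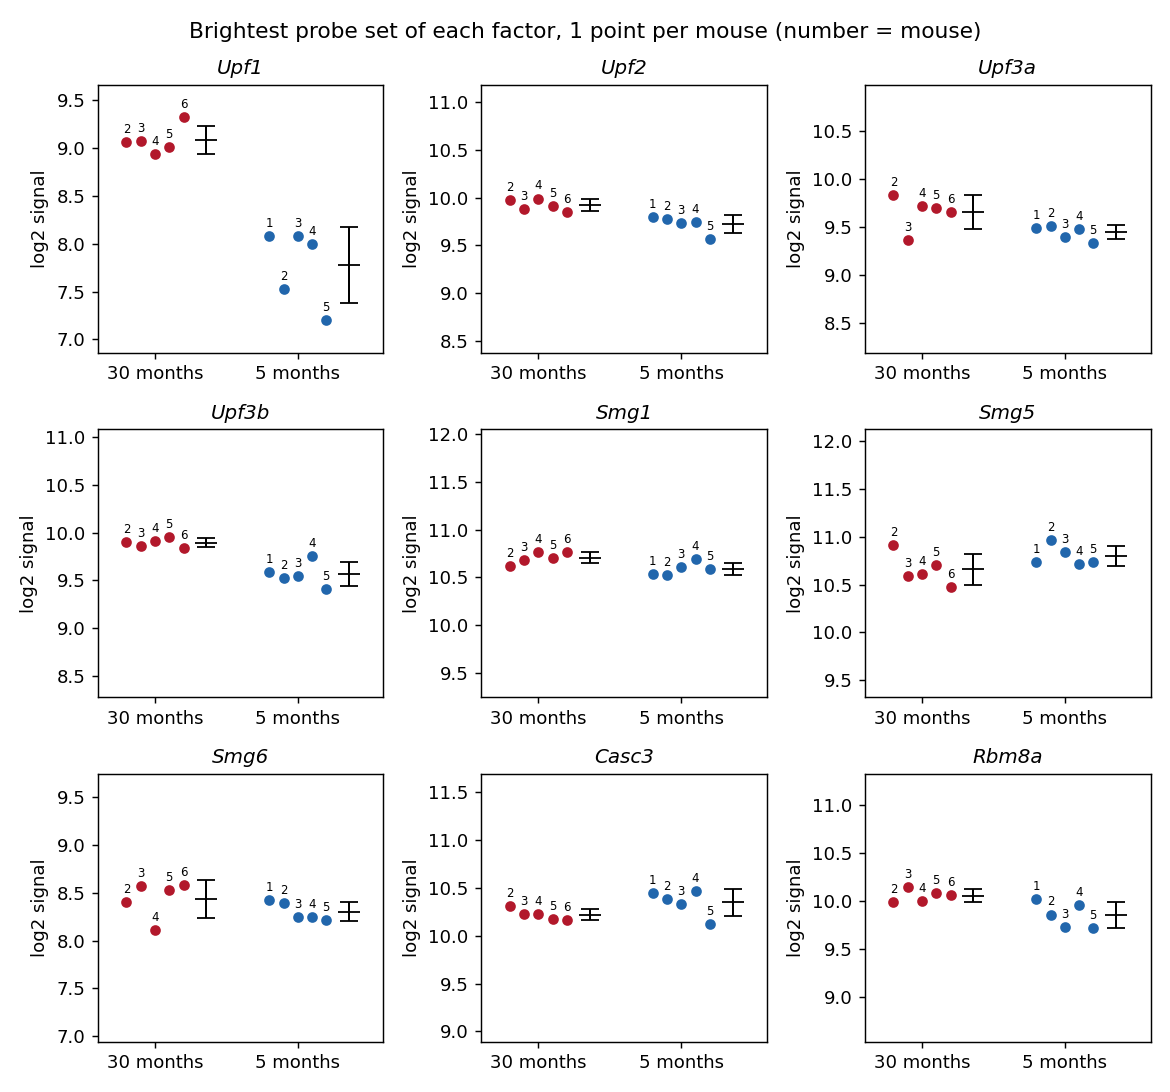
Log2 signal of the brightest probe set of each of the 9 factors, with 30-month mice (red) left of 5-month mice (blue), 1 numbered point per mouse and a bar for mean ± SD (n = 5 at each age). All panels span the same log2 range, and Upf1 is the panel in which the ages lie farthest apart, at 9.08 and 7.78.

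Upf2, the adaptor that connects UPF1 to the UPF3 proteins, had a signal of 1006, 944, 1017, 960 and 924 in 30-month mice 2 to 6, against 890, 875, 850, 857 and 758 in 5-month mice 1 to 5. The ages did not overlap, although the gap between the lowest old and highest young mouse was small, and young mouse 5 lay below the others. Upf2 rose by 0.20 on the log2 scale (SE 0.06, limma, adjusted p = 0.0117). The call held without any single mouse, but was lost after quantile normalization (change 0.07, adjusted p = 0.297) and with every array scaled to 1 median over its tested probe sets, called median scaling below (0.11, adjusted p = 0.123). The other Upf2 probe set, 1445777_at, comes from an expressed sequence tag and lay below the signal filter. It read 73.3, 48.1, 47.5, 66.3 and 45.0 in 30-month mice 2 to 6, against 79.5, 77.7, 95.8, 88.5 and 60.2 in 5-month mice 1 to 5. It thus ran the other way, with 3 of the 5 old mice below every young mouse. Its change of -0.53 (SE 0.18) narrowly missed the threshold among all 45037 probe sets (limma, adjusted p = 0.0506). It was called lower without old mouse 2 (-0.64, adjusted p = 0.0229) or young mouse 5 (-0.63, adjusted p = 0.0281), after median scaling (-0.62, adjusted p = 0.0194), with arrays scaled to 1 median over all probe sets (-0.51, adjusted p = 0.0436) and with 16 added to every signal (-0.43, adjusted p = 0.0464).

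The UPF3 genes, whose proteins bind the exon junction complex, were both called higher. Upf3b, the X-linked copy, read 959, 927, 964, 989 and 913 in 30-month mice 2 to 6, against 771, 737, 749, 866 and 679 in 5-month mice 1 to 5. The ages did not overlap, and the old mice were the more uniform group. Upf3b rose by 0.33 on the log2 scale (SE 0.06, limma, adjusted p = 0.00118), a 1.25-fold difference, and by 0.20 after quantile normalization. Its probe set carries the suffix s_at, which marks probes that can match more than 1 transcript. Upf3a, the autosomal copy, read 913, 659, 843, 829 and 806 in 30-month mice 2 to 6, against 720, 727, 674, 714 and 646 in 5-month mice 1 to 5. Here 4 of the 5 old mice lay above every young mouse, and old mouse 3 lay within the young range. Upf3a rose by 0.21 (SE 0.08, limma, adjusted p = 0.0416), a call lost after quantile normalization (0.09, adjusted p = 0.372), after median scaling (0.12, adjusted p = 0.240), without a signal filter (0.21, adjusted p = 0.0571) and without any one of 8 of the 10 mice (0.17 to 0.23, adjusted p 0.0508 to 0.0998). Without old mouse 3 its change was 0.28 (limma, adjusted p = 0.0035), and without young mouse 1 it was 0.22 (adjusted p = 0.0489). Of the 8 members other than Upf1, only Upf2 and Upf3b had non-overlapping ages with the old mice above, a pattern shared by 24.5% of all tested genes. Upf1 had this pattern too, but its difference was known beforehand and is not counted here.

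The promoters of Upf1 and Upf3b are shown because these were the members whose increase kept its size or its call under every scaling. Each is the window of 300 bases that a RefSeq promoter table on GRCm38.p6 gives for the gene, 5′ to 3′ on the gene's strand, and it spans the outermost annotated gene start, at 70353423 for Upf1 and 37110471 for Upf3b. Capitals mark matches to the GC box GGGCGG, the motif of Sp-family factors, on either strand. The Upf1 promoter lies at chr8:70353230-70353529 on the minus strand and the Upf3b promoter at chrX:37110273-37110572 on the minus strand.
Upf1: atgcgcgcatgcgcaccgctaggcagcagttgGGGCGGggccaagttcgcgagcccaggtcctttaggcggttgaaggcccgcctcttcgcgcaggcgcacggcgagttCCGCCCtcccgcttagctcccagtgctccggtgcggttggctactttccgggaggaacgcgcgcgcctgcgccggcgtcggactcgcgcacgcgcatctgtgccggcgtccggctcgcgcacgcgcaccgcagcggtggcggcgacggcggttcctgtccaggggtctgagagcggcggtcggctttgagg
Upf3b: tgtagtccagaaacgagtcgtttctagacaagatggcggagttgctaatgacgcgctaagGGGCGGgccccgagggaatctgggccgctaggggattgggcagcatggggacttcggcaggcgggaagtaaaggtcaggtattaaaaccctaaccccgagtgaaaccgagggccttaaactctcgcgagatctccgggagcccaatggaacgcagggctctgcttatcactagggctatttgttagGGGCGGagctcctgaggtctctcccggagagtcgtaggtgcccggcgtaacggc
Both promoters were richer in G and C than the median promoter of the table, at 72.3% for Upf1 and 58.7% for Upf3b against 52.7%. Each held 2 GC boxes, a motif found at least once in 35.7% of the 32851 promoters in the table. Neither held the E-box CACGTG, the ETS motif CCGGAAG or the CRE TGACGTCA on either strand, which occurred in 7.15%, 8.86% and 1.79% of all promoters, and the motifs searched did not overlap in these windows. These traits were not particular to the 2 genes. All 7 member promoters in the table exceeded 52.7% G and C, and none held the E-box, ETS motif or CRE. Those of Smg1 and Smg6, which were not called, had 72.0% with 5 GC boxes and 70.7% with 2. That of Smg5, also not called, had 60.7% with 0 GC boxes. A match describes the letters and not a bound site.

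The kinase and the effectors that act on phosphorylated UPF1 showed small differences, and none of the 3 passed the test. Smg1, encoding the kinase of UPF1, read 1576, 1645, 1741, 1664 and 1745 in 30-month mice 2 to 6, against 1481, 1476, 1559, 1650 and 1545 in 5-month mice 1 to 5. The ages overlapped, with 3 of the 5 old mice above every young mouse. The change of Smg1 was 0.12 with a 95% interval of 0.01 to 0.23 that is not adjusted for the number of genes (limma, adjusted p = 0.0641). It passed without old mouse 2 (0.14, adjusted p = 0.0433) or young mouse 4 (0.14, adjusted p = 0.0388), and was -0.003 after quantile normalization. All 4 probe sets of Smg1 had a change above 0, from 0.06 to 0.20, and none of them was called among all probe sets.

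Smg6, the endonuclease that cuts the target near the premature stop, read 338, 380, 276, 370 and 382 in 30-month mice 2 to 6, against 343, 336, 303, 304 and 297 in 5-month mice 1 to 5. Old mouse 4 was the lowest of all 10 mice, and 3 of the other old mice were above every young mouse. The change of Smg6 was 0.13 with an unadjusted 95% interval of -0.06 to 0.33 (limma, adjusted p = 0.243), and without old mouse 4 it was 0.22 (adjusted p = 0.0209). The other 4 probe sets of Smg6 lay below the filter, none was called, 1445418_at had a change of 0.69 that was 0.12 without young mouse 5, and 1442435_at read 1.0 in all young mice and at most 3.28 in the old mice, so that it carries no usable level.

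Smg5, an adaptor without cutting activity of its own that leads UPF1 targets to decapping and deadenylation, read 1924, 1544, 1565, 1675 and 1427 in 30-month mice 2 to 6, against 1711, 2003, 1831, 1682 and 1701 in 5-month mice 1 to 5. Of the old mice 4 lay below every young mouse, and old mouse 2 lay within the young range. The change of Smg5 was -0.14 with an unadjusted 95% interval of -0.30 to 0.03 (limma, adjusted p = 0.154), and its second probe set, 1451797_at, had a change of -0.08. Smg5 was called lower without old mouse 2 (-0.20, adjusted p = 0.0255), after quantile normalization (-0.25, adjusted p = 0.0172) and after median scaling (-0.23, adjusted p = 0.0192). The array record of the brighter Smg5 probe set also names Rplp1, a ribosomal protein gene, so its assignment rests on the gene identifier column alone.

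Of the exon junction complex genes, Rbm8a was called higher and Casc3 was not called. Rbm8a encodes Y14, a core subunit that pairs with MAGOH, and its signal was 1016, 1130, 1021, 1088 and 1070 in 30-month mice 2 to 6, against 1037, 928, 846, 997 and 840 in 5-month mice 1 to 5. Young mice 1 and 4 lay close to the old mice and the ages overlapped. Rbm8a rose by 0.20 (SE 0.07, limma, adjusted p = 0.0261). The call was lost after quantile normalization (0.06, adjusted p = 0.404) and after median scaling (0.11, adjusted p = 0.170). It was also lost without old mouse 3 (0.18, adjusted p = 0.0642), old mouse 5 (0.19, adjusted p = 0.0578), young mouse 3 (0.17, adjusted p = 0.0684) or young mouse 5 (0.16, adjusted p = 0.0592). A dimmer Rbm8a probe set, 1418120_at, read 355, 332, 257, 332 and 257 in 30-month mice 2 to 6, against 238, 252, 222, 235 and 262 in 5-month mice 1 to 5. It went the same way by 0.33 (SE 0.10) and passed among all 45037 probe sets (limma, adjusted p = 0.0364). That call was lost without any one of 7 mice, old mice 2, 3 and 5 and young mice 1 to 4 (0.27 to 0.35, adjusted p 0.0552 to 0.0870), after quantile normalization (0.28, adjusted p = 0.0594), after median scaling (0.24, adjusted p = 0.0883) and without a variance trend (adjusted p = 0.0579).

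Casc3, also called MLN51 or Barentsz, is a peripheral subunit of the same complex. It read 1270, 1203, 1200, 1160 and 1148 in 30-month mice 2 to 6, against 1399, 1339, 1287, 1413 and 1115 in 5-month mice 1 to 5. Young mouse 5 was the lowest of all 10 mice, and the other young mice lay above every old mouse. The change of Casc3 was -0.13 with an unadjusted 95% interval of -0.27 to 0.01 (limma, adjusted p = 0.128). Without young mouse 5 it was called lower (-0.18, adjusted p = 0.0114), as it was after quantile normalization (-0.26, adjusted p = 0.0027) and after median scaling (-0.22, adjusted p = 0.00877). Young mouse 5 was the lowest young mouse in 7 of the 9 members, in Casc3 and Upf1 among them. Without it, Upf2 and Upf3b were called higher and Casc3 lower, and the change of Upf1 was 1.16.

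**Figure D2:**
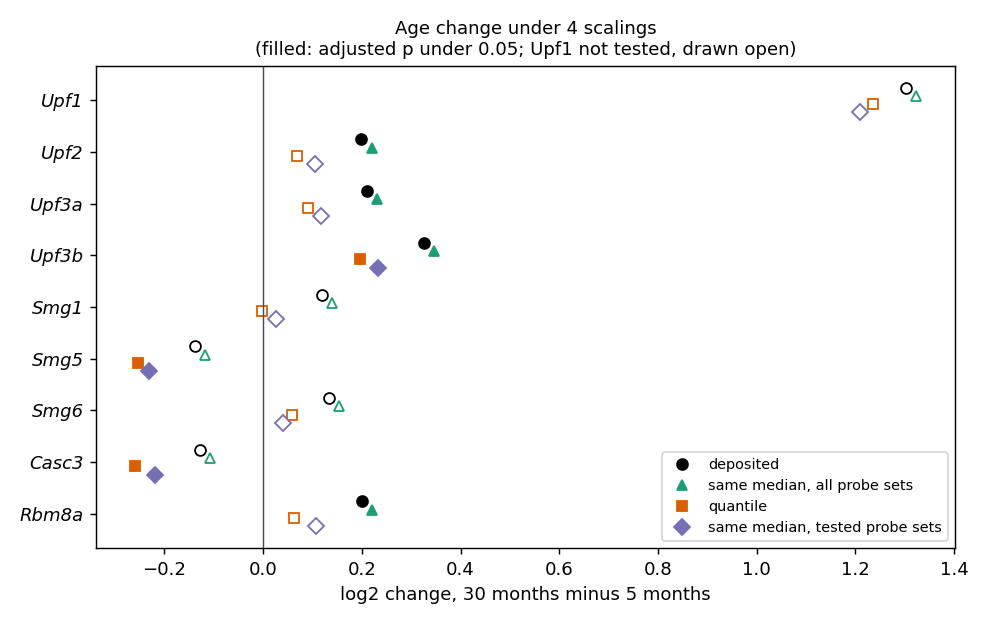
Log2 change at 30 months relative to 5 months of each factor under 4 scalings of the arrays, with filled symbols for an adjusted p under 0.05 and Upf1 drawn open because it was not tested. Upf3b is filled under all 4 scalings, Upf2, Upf3a and Rbm8a under 2 of them, and Smg5 and Casc3 are filled, on the side below 0, under the other 2.

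Set over all 20 probe sets rather than the brightest of each gene, 13 passed the filter and 7 did not. Among the 19 probe sets other than that of Upf1, 4 were called higher in the fit over every probe set of the array, where 15.0% of all probe sets were called higher, and 0 were called lower, where 7.44% were. The 4 were the brighter probe set of Upf2, that of Upf3b and both of Rbm8a. Upf3a, called at the gene level, did not pass here (limma, adjusted p = 0.0768). Of the 6 members with more than 1 probe set, Smg1 and Rbm8a had only changes above 0, Smg5 and Casc3 had only changes below 0, and Upf2 and Smg6 had changes of both signs.

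**Figure D3:**
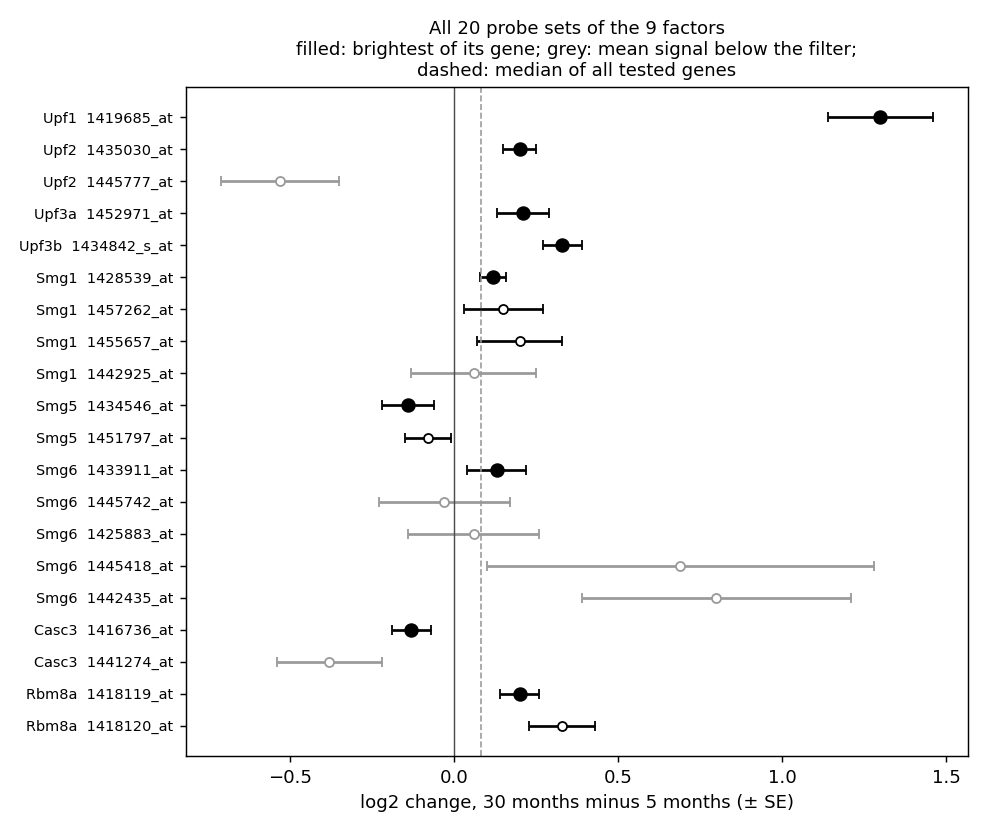
Log2 change at 30 months relative to 5 months with its standard error for all 20 probe sets, from the fit over every probe set of the array. Filled points are the brightest probe set of a gene, grey points lay below the signal filter, and the dashed line is the median change of all tested genes, 0.08; Upf1 stands at 1.30 and the dimmer Upf2 probe set at -0.53.

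The other factors of the pathway were taken from lists written with earlier results of these data known. Of 12 further nonsense-mediated decay and junction complex genes 10 were tested, of which 1 was called higher, 1 lower and 8 did not pass (median change -0.06, against 0.08 for all tested genes). Over all tested genes 34.0% were called higher and 12.3% lower. Magoh, the partner of Y14, read 956, 1088, 940, 1014 and 1077 in 30-month mice 2 to 6, against 1319, 1340, 1128, 1316 and 1270 in 5-month mice 1 to 5. Every old mouse lay below every young mouse, as in 5.75% of all tested genes, and Magoh fell by 0.33 (SE 0.06, limma, adjusted p = 0.00111), a call kept under all 18 alternatives. Y14 and MAGOH form a stable pair, and their genes thus differed in the sign of their change under the deposited scaling. Rnps1, an accessory factor of the junction complex, rose by 0.17 (limma, adjusted p = 0.0252), a call lost without old mouse 2 (0.16, adjusted p = 0.0504) or old mouse 3 (0.16, adjusted p = 0.0564) and after median scaling (0.08, adjusted p = 0.242). Eif4a3, the helicase that anchors the junction complex on RNA, had adjusted p = 0.951 (limma), and Magohb, the second MAGOH gene, a change of -0.04 with adjusted p = 0.703.

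Among 7 genes of cap binding and translation termination, 4 were called higher, 0 lower and 3 did not pass (median 0.16). Over all tested genes 34.0% were called higher and 12.3% lower, with a median of 0.08, and the list was not tested as a set. Pabpc1, the poly(A)-binding protein whose distance from the stop codon helps to mark normal termination, rose by 0.26 (SE 0.05, limma, adjusted p = 0.000918) with non-overlapping ages, at 2125 to 2327 in the old mice and 1716 to 1949 in the young mice. Ncbp1, the larger subunit of the nuclear cap-binding complex, rose by 0.23 (SE 0.06, limma, adjusted p = 0.0101), and its call was lost after quantile normalization (0.12, adjusted p = 0.120) and after median scaling (0.13, adjusted p = 0.0832). Gspt1, the release factor eRF3a, and the initiation scaffold Eif4g1 each had a change of 0.16 (limma, adjusted p = 0.0385 and 0.0383). Their calls were lost without any one of 6 of the 10 mice, for both genes, at adjusted p values of up to 0.0973 for Gspt1 and 0.0905 for Eif4g1, and after quantile normalization (adjusted p = 0.494 for Gspt1 and 0.211 for Eif4g1) or median scaling (adjusted p = 0.372 for Gspt1 and 0.309 for Eif4g1). With its probe sets averaged, Gspt1 had a change of -0.02 (adjusted p = 0.859) and Eif4g1 one of 0.06 (adjusted p = 0.427). The call of Eif4g1 was also lost without a signal filter (adjusted p = 0.0549) and without a variance trend (adjusted p = 0.0612).

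Of 9 mRNA decay genes, 4 were called higher, 1 lower and 4 did not pass (median 0.16). The shares over all tested genes were 34.0% higher and 12.3% lower, with a median of 0.08, and this list was not tested as a set either. Dcp2, the decapping enzyme, rose by 0.37 (SE 0.05, limma, adjusted p = 6.57e-05) and read 1286 to 1400 in the old mice and 979 to 1069 in the young mice. Edc4, a scaffold of decapping, rose by 0.34 (SE 0.05, limma, adjusted p = 0.000193), and the exosome nuclease gene Dis3 rose by 0.27 (SE 0.07, adjusted p = 0.00741). The calls of Dcp2 and Edc4 held under all 18 alternatives. Cnot1, the scaffold of the main deadenylase complex, had a change of 0.19 (limma, adjusted p = 0.0308), and Xrn1, which digests decapped RNA from its 5′ end, had one of -0.28 (adjusted p = 0.0375). The calls of Cnot1 and Xrn1 were each lost without any one of 5 mice, at adjusted p values of up to 0.0717 for Cnot1 and 0.0997 for Xrn1, that of Cnot1 also after quantile normalization (0.06, adjusted p = 0.425) and median scaling (0.10, adjusted p = 0.215), and that of Xrn1 also without a signal filter (adjusted p = 0.0592). The call of Dis3 was lost after median scaling (0.18, adjusted p = 0.0508).

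**Figure D4:**
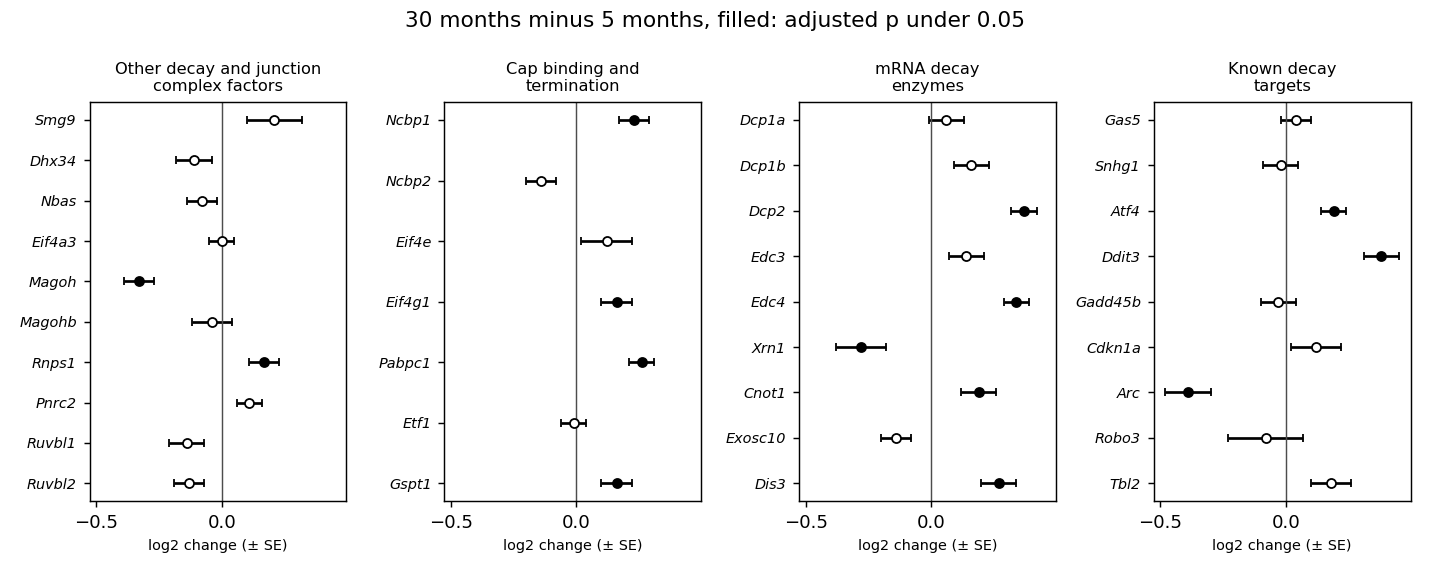
Log2 change at 30 months relative to 5 months with its standard error for the tested genes of 4 lists, filled where the adjusted p was under 0.05. Ddit3 at 0.38 and Dcp2 at 0.37 lie highest, and Arc at -0.39 and Magoh at -0.33 lie lowest.

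Transcripts known as substrates of nonsense-mediated decay did not move one way. Of 12 listed, 9 were tested, 2 were called higher, 1 lower and 6 did not pass (median 0.04). Over all tested genes 34.0% were called higher and 12.3% lower, with a median of 0.08. Ddit3, a stress transcription factor gene with an upstream open reading frame, rose by 0.38 (SE 0.07, limma, adjusted p = 0.00063), with 915 to 1008 in the old mice and 661 to 831 in the young mice. Arc, whose messenger carries junction complexes after its stop codon, fell by 0.39 (SE 0.09, limma, adjusted p = 0.00296), with 2369 to 3467 in the old mice and 3769 to 4359 in the young mice. Both calls held under all 18 alternatives. Atf4, another gene with upstream reading frames, rose by 0.19 in its brightest probe set (limma, adjusted p = 0.00556), but its other tested probe set was called lower, at -0.25 (adjusted p = 0.00388). The mean of both had a change of -0.03 (adjusted p = 0.596), and the call of the brightest was lost after quantile normalization (0.11, adjusted p = 0.0912) and median scaling (0.10, adjusted p = 0.114). Gas5, the host of small nucleolar RNAs whose spliced transcript is a classic substrate, had a change of 0.04 in its brightest probe set, while 3 of its 4 other tested probe sets were called lower, at -0.50, -0.31 and -0.17. Snhg1, a host gene of the same kind, had a change of -0.02 in its brightest probe set, and 2 of its 4 other tested probe sets were called lower, at -0.56 and -0.42. Gadd45b, also listed, had a change of -0.03 in its brightest probe set. Its other tested probe set was called lower among all probe sets, at -0.46 (limma, adjusted p = 0.00063). With the probe sets of each gene averaged, 1 target was called higher and 4 were called lower, so these counts depend on the probe set chosen.

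The 5 tested genes outside the members whose log2 signal followed that of Upf1 most closely over the 10 arrays were Prmt7, Get3, Telo2, Zfp24 and Tspan5. Likeness was measured by Pearson's r, which ran from 0.9858 to 0.9904, and since the arrays fall into 2 ages it reflects mainly the difference between ages. Within ages, with each age's mean removed, r for these genes was 0.915 to 0.930. They were picked by an r that also holds the within-age differences, so a high value here was built in. Within ages Upf1 varied more in the young mice (SD 0.39) than in the old mice (SD 0.14). Young mouse 5, lowest in Upf1, was the lowest of its age in 41.0% of all tested genes. Their own age changes, 0.43 to 0.62 on the log2 scale, were smaller than that of Upf1. These values are a description and carry no test.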

How the data were processed

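The deposited intensities were linear, 1 value for each of 45037 probe sets on each of 10 arrays. GCOS is the software that the submitters' processing notes name; how background, probe summary and scaling were handled is not given in the sources. The authors' deposited comparison table repeated these intensities and added a signed fold change with bounds, treated as a score, and a p-value; per the file headers, their criteria were a lower bound above 1.2 with p no higher than 0.1, and control probe sets were omitted.

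Probe sets were named with a RefSeq gene table of GRCm38.p6, 36239 by gene identifier and 60 by transcript accession where the identifier gave no gene. In all 36299 had 1 gene, 1261 several and 7477 none. Signals under 1 were set to 1, log2 was taken, and the scaling was left as deposited. Probe sets with a mean above 6.89 were tested, the brightest per gene, giving 11963 genes, with limma 3.58.1 in R 4.3.3 (age term, variance trend, two-sided) and Benjamini-Hochberg adjustment over all genes; every probe set was also fitted without a filter.

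Named genes were all 9 members with every probe set, called genes of 4 pathway lists and the 5 genes most like Upf1. Eif4a3, Magohb, Gas5, Snhg1, Gadd45b and marker genes were named outside that rule, after their values were seen. The members and lists were chosen with earlier results of these data known, and 1 gene of a list is not reported here and was left out of its counts. Alternatives covered scaling, an added signal of 16, the filter, averaging of probe sets, the variance model, mouse number as a replicate block and omission of each array; 1 scaling was added after seeing the data. Mouse numbers shared by the ages did not pair the arrays (correlations of same-numbered deviations -0.33 to 0.11). Each group is 5 mice, and the number of arrays limits the precision (median SE 0.07). Figures were drawn in Python 3.11.15 with matplotlib 3.10.9, from tables made with pandas 2.3.3 and numpy 2.4.6.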

Additional observations from a re-analysis of the deposited data

Results flagged for a closer look

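Each of the 40 groups formed by the 20 probe sets and 2 ages was checked for a mouse far from the other 4, and 2 groups held one, where chance flags about 1 in 20 groups. In Upf2 (1435030_at) 5-month mouse 5 read 758, below the 849.7 to 889.8 of the other young mice. In the dim Smg6 probe set 1445742_at, 30-month mouse 4 read 35.6, below the 46.78 to 51.69 of the other old mice.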

How the results depend on the processing

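The scaling of the arrays altered which small changes were called, as did leaving out single mice, and the cause was not tested. Upf1 kept a change of 1.16 to 1.38 under all 18 alternatives, and Upf3b, Magoh, Pabpc1, Dcp2, Edc4, Ddit3 and Arc kept their calls under all of them. The median change of all tested genes was 0.08 as deposited, 0.005 after quantile normalization, 0.101 with arrays scaled to 1 median over all probe sets, and -0.012 with arrays scaled to 1 median over the tested probe sets, the scaling chosen after seeing the data. After quantile normalization 1 of the 8 tested members was called higher and 2 lower. The other decay factors then had 1 higher and 5 lower, and the cap and termination genes 1 higher and 2 lower. The decay enzymes had 3 higher and 2 lower, and the known targets 1 higher and 1 lower. Of the member probe sets 1 was then higher and 2 lower, and the change of Smg1 was -0.003. Of all genes 2738 were then higher, against 4068 as deposited, and 2435 lower, against 1466 as deposited. With arrays scaled to the median of the tested probe sets, 1 member was higher and 2 were lower, and the other decay factors had 0 higher and 5 lower. The cap and termination genes then had 1 higher and 1 lower, the decay enzymes 2 higher and 2 lower, and the known targets 1 higher and 1 lower. Of the member probe sets 1 was then higher and 3 lower, and of all genes 2602 were higher and 2702 lower. With the median of all probe sets 5 member probe sets were higher and 1 lower, and with 16 added to every signal 4 were higher and 1 lower. Without a filter 2 of the other decay factors were higher and 1 lower, 4 decay enzymes were higher and 0 lower, and 2 targets were higher and 2 lower. With probe sets averaged, 2 cap and termination genes were higher and 1 lower, 1 target was higher and 4 were lower, Gspt1 had a change of -0.021 and Atf4 one of -0.031. Without a variance trend 2 member probe sets were higher and 0 lower.

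With mouse number as a replicate block over mice 2 to 5 at both ages, 3 decay enzymes were higher and 0 lower. Of the other decay factors 2 were then higher and 1 lower, and of the member probe sets 2 were higher and 0 lower. The numbers do not pair the mice, and 3 members were called higher in that fit. The calls of Upf3a, Gspt1, Cnot1, Xrn1 and the dimmer Rbm8a probe set did not pass in it, at adjusted p = 0.0608, 0.183, 0.105, 0.0798 and 0.0606 in that order (limma).

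Leaving out each mouse in turn gave 2 to 4 members higher and 0 to 1 lower, and 2 to 4 member probe sets higher and 0 to 2 lower. The counts were 0 to 2 higher and 1 to 2 lower for the other decay factors, and 2 to 4 higher and 0 to 1 lower for the cap and termination genes. They were 3 to 5 higher and 0 to 1 lower for the decay enzymes, and 2 higher and 1 lower throughout for the targets. For all genes they were 3571 to 4147 higher and 1199 to 1547 lower.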
